A study of Mus musculus with 32 samples.

Results

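The genes described here mark the secretory (club) and ciliated cells that line the conducting airways. There are 10 of them, chosen by name with earlier results of these data known. They are Scgb1a1, Scgb3a1, Scgb3a2, Chad and Chil1 on the secretory side, and Foxj1, Tekt1, Tekt4, Rsph1 and Ccdc113 on the ciliated side. Each had a single probe set on the array, and all 10 passed the filter on low values, so they are 10 of the 13345 genes tested. They were followed through 10 groups of C3H/HeN mouse lungs, 32 arrays with 1 animal each. The Gsr-KO (KO) mice lack glutathione reductase, the enzyme that returns oxidised glutathione to its reduced form, and Gsr-WT (WT) mice carry it. The groups were KO E19 and WT E19, lungs of embryos at day 19 (4 arrays each), and, with 3 arrays each, KO P5 hyperoxia, KO P5 air, WT P5 hyperoxia, WT P5 air, KO P56 hyperoxia, KO P56 air, WT P56 hyperoxia and WT P56 air. Hyperoxia was 100% oxygen for the first 5 days of life, with dams, and air was room air over the same days; the P56 lungs were taken at day 56, after the return to air. The RNA of each mouse came from part of its lung, so every value is a mixture of airway, alveolar and other cells, and the labels do not say which part. In such samples fewer cells of a type and less RNA per cell cannot be told apart.

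Club cells are dome-shaped secretory cells of the airway epithelium that release secretoglobins into the fluid lining the airways and detoxify inhaled compounds; they also serve as progenitors that can renew themselves and give rise to ciliated cells. Ciliated cells carry bundles of motile cilia that beat to move mucus out of the lung. FOXJ1 and the RFX factors switch on the genes of the motile axoneme, and Notch signalling between neighbouring cells favours the secretory over the ciliated fate.

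The RFX factors bind an X-box made of copies of a short half-site, and forkhead factors such as FOXJ1 bind a forkhead motif, so the promoter windows of the members were searched for both. The half-site searched was GTTGCC and the forkhead motif TGTTTAC, each on both strands, in RefSeq windows on GRCm38.p6 from 250 bases before to 50 bases after an annotated start. RefSeq windows were matched by symbol for 6 of the 10 members, 7 windows in all, among 32851 windows searched. The half-site stood in 3 of the 7 windows, those of Tekt1, Tekt4 and Ccdc113, and in 12.5% of all windows. The forkhead motif stood in 0 of the 7 and in 3.65% of all windows. The 3 windows with a half-site are shown because they are those of ciliated genes, and that of Chil1 because it is the secretory gene whose values differed most clearly between genotypes; capitals mark the half-site on either strand. Tekt1 (chromosome 11, chr11:72361833-72362132, minus strand) has half-sites that begin 35 and 15 bases before its start, on opposite strands. Ccdc113 (chromosome 8, chr8:95533850-95534149, plus strand) has it 6 bases before its start. Tekt4 (chromosome 17, chr17:25471340-25471639, plus strand) has it 8 bases after its start. Chil1 (chromosome 1, chr1:134181906-134182205, plus strand) has none in this window. Neither the other Tekt1 window nor those of Scgb3a1 and Chad held a match. A match is a description of these letters and not a bound site.
Tekt1: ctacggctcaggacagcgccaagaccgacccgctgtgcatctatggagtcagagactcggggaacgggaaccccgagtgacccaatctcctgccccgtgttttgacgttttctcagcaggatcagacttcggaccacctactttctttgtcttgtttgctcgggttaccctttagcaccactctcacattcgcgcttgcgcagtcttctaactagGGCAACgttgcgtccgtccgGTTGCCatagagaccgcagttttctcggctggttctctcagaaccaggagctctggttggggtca
Ccdc113: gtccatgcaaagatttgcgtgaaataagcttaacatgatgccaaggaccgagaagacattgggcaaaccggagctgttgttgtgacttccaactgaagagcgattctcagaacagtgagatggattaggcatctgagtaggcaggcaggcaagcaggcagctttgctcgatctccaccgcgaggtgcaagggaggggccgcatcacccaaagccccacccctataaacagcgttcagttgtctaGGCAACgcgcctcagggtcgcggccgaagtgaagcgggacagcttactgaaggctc
Tekt4: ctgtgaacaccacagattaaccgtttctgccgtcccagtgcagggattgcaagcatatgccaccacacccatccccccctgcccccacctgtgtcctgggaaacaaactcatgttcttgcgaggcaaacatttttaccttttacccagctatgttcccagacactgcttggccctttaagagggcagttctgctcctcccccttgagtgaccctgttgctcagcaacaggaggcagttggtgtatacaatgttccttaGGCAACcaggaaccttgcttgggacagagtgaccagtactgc
Chil1: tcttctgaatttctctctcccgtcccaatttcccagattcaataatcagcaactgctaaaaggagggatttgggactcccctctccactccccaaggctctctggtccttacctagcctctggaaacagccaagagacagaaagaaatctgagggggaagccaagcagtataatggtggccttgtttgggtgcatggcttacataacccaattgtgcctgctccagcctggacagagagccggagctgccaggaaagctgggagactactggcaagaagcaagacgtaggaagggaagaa

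Every signal is the deposited intensity on a linear scale. A change is a log2 difference from 1 limma fit over all arrays, on log2(value + 26.3), which understates the change of dim genes. A gene "rose" or "fell" where its Benjamini-Hochberg adjusted p over 13345 genes was under 0.05. Gsr itself read 138 to 257 in KO and 498 to 1541 in WT over all ages, so genotype labels and Gsr signal matched on all 32 arrays. The markers of the airway were present: Cyp2f2, a club cell oxygenase outside the members, read 4361 to 19279 on the E19 arrays and the epithelial Epcam 1770 to 3300. Several arrays stood apart from their groups. WT E19 replicate 1 correlated best with KO P5 air replicate 1 (r = 0.974 over genes) and at most 0.937 with its own group. KO P5 air replicate 1 correlated best with KO E19 replicate 2 (r = 0.976) and at most 0.961 with its own group. KO E19 replicates 2 and 4 also correlated best with KO P5 air replicate 1 (r = 0.976 and 0.974). The age labels of WT E19 replicate 1 and KO P5 air replicate 1 are in doubt and were kept as given. They touch each comparison with WT E19 or KO P5 air. For WT E19 replicate 1 the doubt rests on a match to an array that itself matched E19 best. Its mean centred log2 level of regulators of multiciliated cell formation was 0.43. That level was 0.30 to 0.43 in WT E19 replicates 2 to 4 and -0.23 to 0.10 in WT P5 air. Its liver level, given below, lay outside both of these groups. KO E19 replicate 1 and WT P56 hyperoxia replicate 2 had log2 3'/5' ratios of control probe sets of 4.37 and 2.84, against at most 1.56 on the others. Liver genes differed between groups: their mean centred log2 level was -1.65 to 0.88 in KO E19, against 4.78 to 5.99 in WT E19 replicates 2 to 4 and -0.54 in replicate 1, and -1.68 to -0.19 in KO P5 air, against 1.70 to 3.69 in WT P5 air. Keratinised (squamous) epithelium genes were high in WT E19 replicate 1 (2.33), WT P5 air replicate 1 (2.07) and all KO P5 hyperoxia arrays (1.75 to 2.31), against at most 1.10 on the others. A control probe set of 18S ribosomal RNA also differed between genotypes. It read 229 to 1867 in KO P5 air, against 16420 to 19030 in WT P5 air. The genotypes overlapped at E19 (83.6 to 20350 in KO, 12050 to 20580 in WT) and in P56 air (2612 to 8395 in KO, 4586 to 18750 in WT). Its part in the genotype comparisons was not tested.

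**Figure D1:**
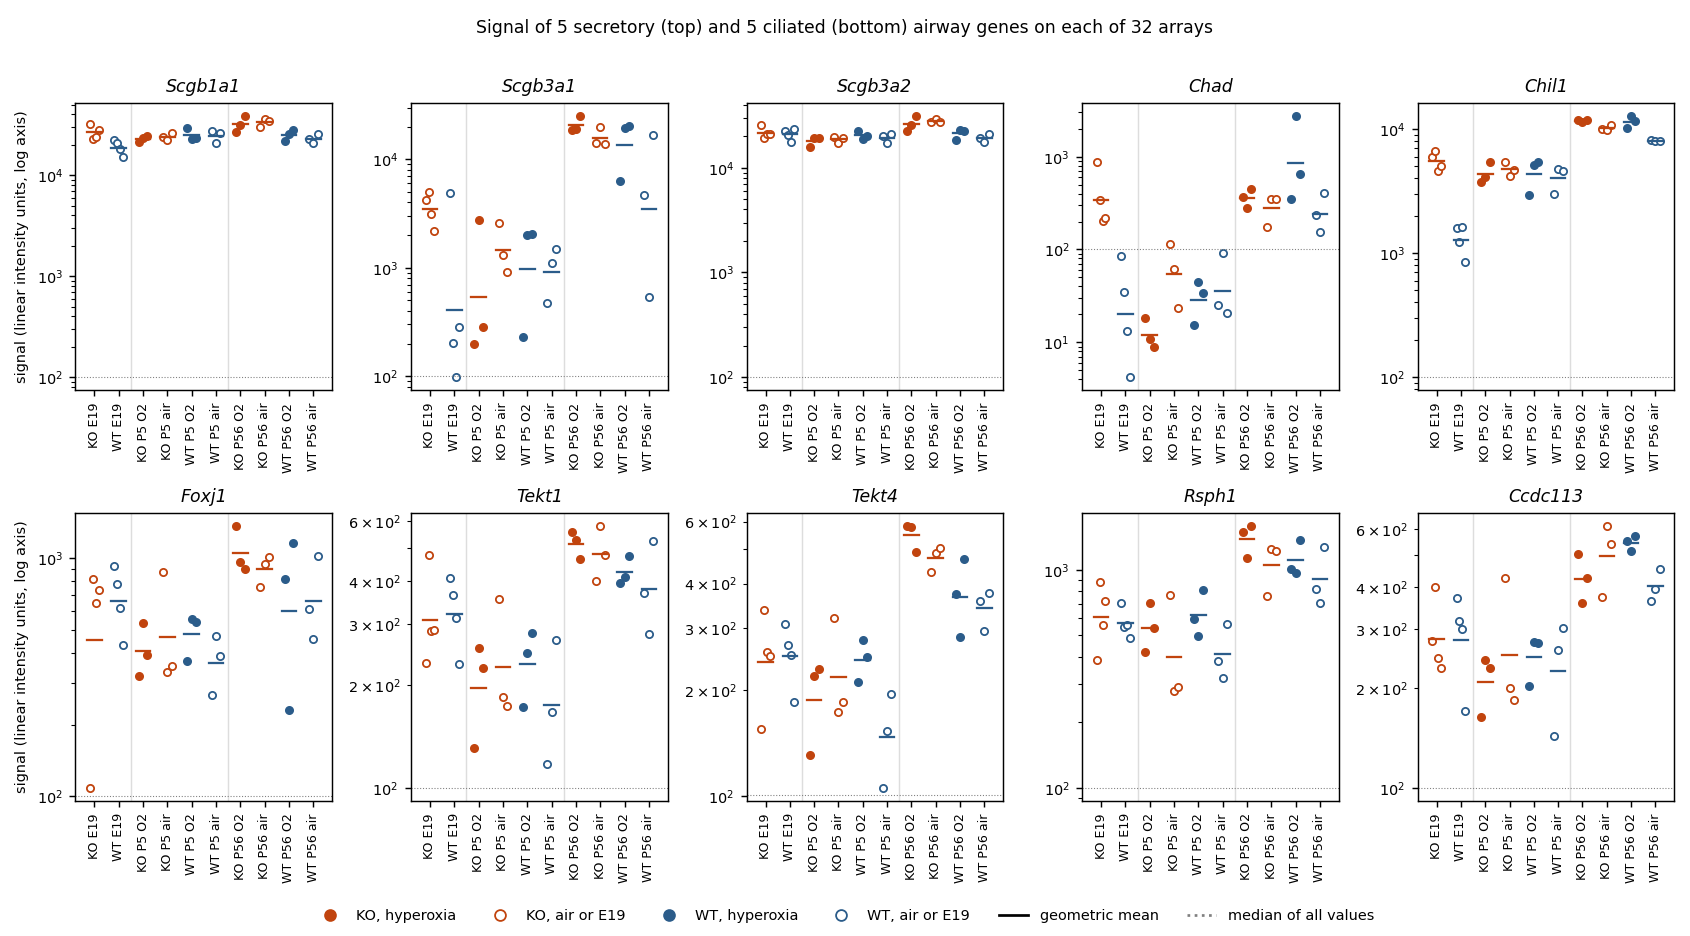
Signal of each member (linear intensity on a log axis) on all 32 arrays by group. Each circle is an array, KO in orange and WT in blue, filled for hyperoxia, with the geometric mean as a bar and the median of all values as a dotted line. In the E19 groups the 4 KO circles of Chil1 (4544 to 6618) lie above the 4 WT circles (846 to 1634), whereas the ciliated genes of the lower row overlap between genotypes.

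The secretoglobins are small proteins secreted by airway cells. Scgb1a1, the classical club cell secretory protein, was among the brightest probe sets of these lungs, with a median rank of 4 of 45101 and signals from 15032 to 38833. Scgb3a2, an airway secretoglobin that appears early in the developing lung, ran from 15949 to 31416. Both were therefore bright at E19 already, and their highest group mean was 1.78 and 1.56 times the lowest on the fitted scale. Scgb3a1, a secretoglobin of the larger airways, ran from 98.3 to 25239, and its highest group mean was 45.5 times the lowest. Chad (chondroadherin, a leucine-rich matrix protein best known from cartilage) ran from 4.22 to 2769, and Chil1, a chitinase-like secreted protein that alveolar type 2 cells and macrophages also express, from 846 to 12795. Foxj1, the master transcription factor of motile cilia, ran from 109 to 1361. Tekt1 and Tekt4, tektins that form filaments along the axonemal microtubules, ran from 117 to 579 and from 106 to 582. Rsph1, a component of the radial spoke head, ran from 279 to 1584, and Ccdc113, a ciliary coiled-coil protein, from 144 to 611. The highest group means of the 5 ciliated genes were 2.43 to 3.32 times the lowest, above the ratios of Scgb1a1 and Scgb3a2 and below those of Scgb3a1, Chad and Chil1 (8.93).

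Ordered by group mean, 5 of the 5 ciliated genes had the highest mean in a P56 group and the lowest in a P5 group. For Foxj1, Tekt1, Tekt4 and Rsph1 the highest was KO P56 hyperoxia, and for Ccdc113 WT P56 hyperoxia. Among the secretory genes Scgb1a1, Scgb3a1 and Chil1 had their lowest mean in WT E19, and Scgb3a2 and Chad in KO P5 hyperoxia. All neighbours in that order overlapped array by array, except for 1 of 9 steps in Chad (KO P5 air to WT P56 air) and 3 of 9 in Chil1 (WT E19 to WT P5 air, KO E19 to WT P56 air and WT P56 air to KO P56 air).

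The comparison of genotypes before birth asked what the missing enzyme changes in the unexposed lung. At E19 the secretory members parted from the ciliated ones: 4 of 5 secretory genes rose in KO and 0 of 5 ciliated genes were called. At an unadjusted p under 0.05 were 0 of these 5 ciliated genes, against 4090 of the 13345 genes. The members were chosen with earlier results of these data known, and the wider lists, given below, were mixed. Among all genes 15.2% were called and 6.91% called higher. The median change was 2.08 for the secretory and -0.04 for the ciliated genes, against -0.05 for all genes tested.

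Chil1 read 5949, 6618, 4544 and 5031 in KO E19 lungs, against 1582, 1221, 1634 and 846 in WT E19 lungs. Every KO array was above every WT array. Its change was 2.08 (SE 0.19, limma adjusted p = 1.17e-07, n = 4 and 4).

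Chad read 870.2, 345, 202 and 217 in KO E19 lungs, against 85.7, 34.9, 13.2 and 4.22 in WT E19 lungs. The groups did not overlap, and the highest KO value was on replicate 1, the array with the high 3'/5' ratio. Its change was 2.78 (SE 0.50, limma adjusted p = 0.000629), or at least 1.54 with the WT arrays, all under the median of all values, set to that median of 100.4. Without both arrays of high 3'/5' ratio the change of Chad was 2.35 (adjusted p = 0.000637). Col2a1, the main cartilage collagen, read at most 46.4 in KO E19 and at most 62.4 in WT E19, and 0 of the 5 tested genes of a cartilage list were called.

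Scgb3a1 read 4228, 4987, 3117 and 2163 in KO E19 lungs, against 4878, 203, 98.3 and 284 in WT E19 lungs. WT replicate 1 lay within the KO range and the other 3 WT lungs far below the lowest KO lung. Its change was 2.93 (SE 0.95, limma adjusted p = 0.0378), and without the arrays of high 3'/5' ratio it was 2.83 (adjusted p = 0.0674). Scgb1a1 read 31958, 22965, 24126 and 28276 in KO E19 lungs, against 22121, 20638, 18115 and 15032 in WT E19 lungs. The groups did not overlap, though the gap between them was small, and the change was 0.50 (SE 0.13, limma adjusted p = 0.0116). Scgb3a2 read 25788, 19225, 21078 and 20835 in KO E19 lungs, against 22672, 20716, 17660.0 and 23372 in WT E19 lungs. These values overlapped, with a change of 0.04 (95% interval -0.19 to 0.28). Without overlap between groups were thus 3 of the 10 members at E19, against 10.1% of all genes.

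Of the ciliated genes, Foxj1 read 109, 815, 647 and 737 in KO E19 lungs, against 931, 782, 617 and 432 in WT E19 lungs. The value of 109 belongs to KO replicate 1, the array with the high 3'/5' ratio, where Tekt1 (231), Tekt4 (155) and Rsph1 (384) were the lowest of the KO lungs as well. The change of Foxj1 was -0.49 (95% interval -1.43 to 0.45). The changes of Tekt1, Tekt4, Rsph1 and Ccdc113 were between -0.05 and 0.09, with intervals that lay within -0.57 and 0.67.

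The liver level at E19 was at most 0.88 in KO, against 4.78 to 5.99 in WT replicates 2 to 4. Its part and that of the genotype therefore cannot be told apart here. WT replicate 1 had a liver level of -0.54 and a squamous level of 2.33. The doubt about its age label rests on the match described above. In WT replicate 1, the WT array with the lowest liver level, Scgb3a1 was at the KO level, Scgb1a1 and Chad were the highest of the WT lungs, and Chil1 (1582) lay within the range of the other WT lungs (846 to 1634). With the liver level as a covariate the change of Chil1 was 1.62 (limma adjusted p = 0.000717), that of Chad 2.12 (0.146), that of Scgb1a1 0.38 (0.320) and that of Scgb3a1 0.10 (0.973). When only the E19 arrays were fitted, Chil1 was the only member called (limma adjusted p = 0.0165). Without WT E19 replicate 4 the 2 members called were Chad and Chil1.

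**Figure D2:**
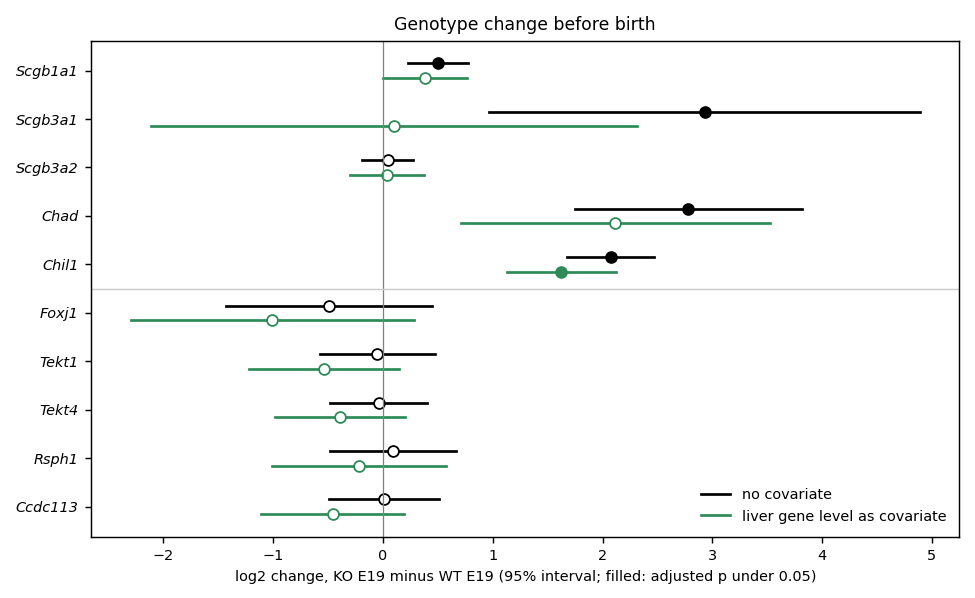
Change of each member at E19, KO minus WT (log2 axis), with 95% intervals, without a covariate in black and with the liver gene level as a covariate in green; filled points passed the adjusted p. Chil1 is at 2.08 and 1.62, and Scgb3a1 at 2.93 and 0.10.

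**Figure D3:**
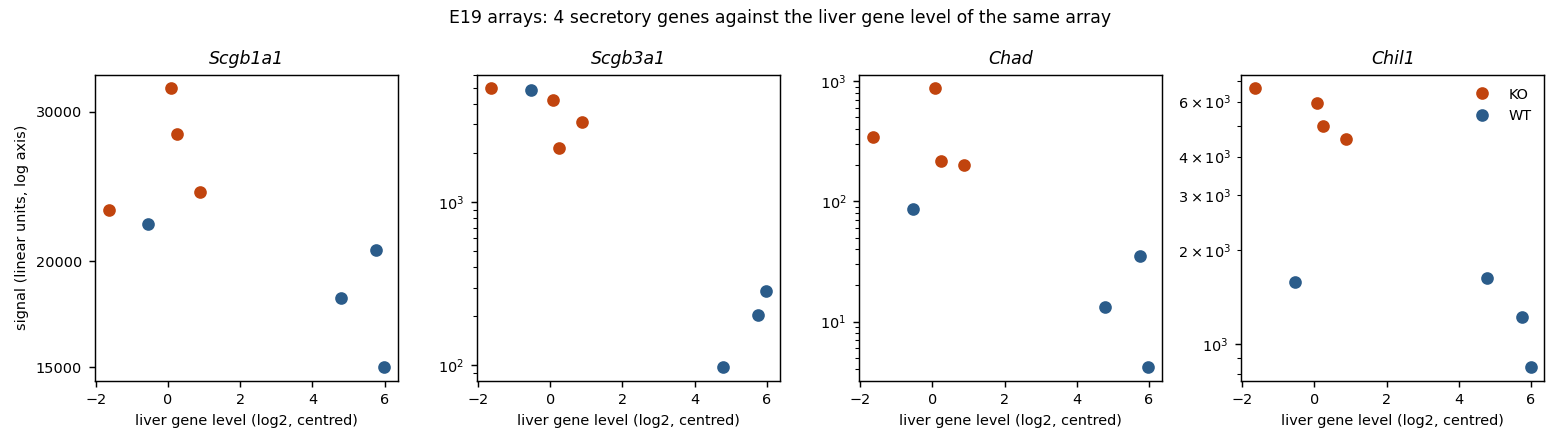
Signal of 4 secretory genes (linear intensity on a log axis) against the mean centred log2 level of the liver genes on the same array, for the 4 KO (orange) and 4 WT (blue) E19 arrays. The WT array at a liver level of -0.54 has 4878 for Scgb3a1, among the KO values, and 1582 for Chil1, among the WT values.

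The other genes of both cell types gave a mixed picture at E19, to be read against the 15.2% of all genes called, with 6.91% called higher. Of 29 tested genes of a wider club and secretory list 6 rose and 4 fell in KO (median 0.31, and 0.09 with the liver covariate, where 1 rose). Among those called, Retnla was at 1.68, and Krt15, Gsta3 and Ltf at -2.54, -1.98 and -1.60. Krt15 is also in the squamous list, whose level was 2.33 on WT E19 replicate 1. Of 53 tested genes of a wider motile cilium list 4 rose and 0 fell (median 0.25, and -0.04 with the liver covariate, where 0 were called by limma, whereas 12 rose with median centring): the central apparatus genes Spef2 (1.09) and Hydin (0.61) and the cadherins Cdhr4 (0.81) and Cdhr3 (0.67). Of 11 regulators of multiciliated cell formation 2 fell, Ccno (-1.001) and Deup1 (-0.83), which serve the amplification of centrioles. Of 17 Notch pathway genes 3 rose: the target Hey2 (1.33), the ligand Dll1 (0.63) and the receptor Notch4 (0.56). Of 16 airway transcription factors 3 fell, Foxa3 (-1.79), Foxp2 (-1.14) and Klf5 (-0.68). Of 14 pan-epithelial genes 3 fell and 0 rose, and of 15 alveolar type 2 genes, a cell type in which Chil1 is also expressed, 9 rose and 1 fell. Chil3, a macrophage chitinase-like gene, read 852 to 5100 in KO E19 and 271 to 875 in WT E19. What these cell types contribute to the Chil1 values was not tested. The values with the liver covariate cover the club and motile cilium lists only. For the other lists the part of the liver level was not tested.

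The step from E19 to P5 in air asked what birth and the first days of breathing change in each genotype. In KO, 1 member fell and 0 rose, and in WT 1 rose and 0 fell. The shares of all genes called were 3.43% in KO (1.21% called lower) and 14.6% in WT (8.34% called higher). In KO Chad read 114, 62.2 and 23.5 in P5 air, against 870.2, 345, 202 and 217 at E19. No P5 value reached the E19 values, and the change was -2.11 (SE 0.54, limma adjusted p = 0.0317). Of these P5 air values 2 of 3 were under the median of all values, so the size is uncertain. The call ended without KO E19 replicate 1 or either of KO P5 air replicates 2 and 3. In WT Chil1 read 2979, 4801 and 4565 in P5 air, against 1582, 1221, 1634 and 846 at E19. All P5 lungs were higher, with a change of 1.63 (SE 0.21, limma adjusted p = 1.40e-05), whereas in KO Chil1 read 5402, 4194 and 4677 in P5 air, against 4544 to 6618 at E19, a change of -0.21 (95% interval -0.64 to 0.22). The difference between these steps was tested as the genotype-by-birth term. Chil1 was the 1 member called in it, at -1.84 (SE 0.29, limma adjusted p = 0.00256), where 0.187% of all genes were called and 0.135% called lower. The call ended in a fit of the 4 groups alone (adjusted p = 0.130). The wider club list had 1 call in this term, the cytochrome Cyp4b1 at -1.30.

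None of the 5 ciliated genes passed the test between P5 and E19 in either genotype. In WT their changes lay between -0.82 and -0.28, with Tekt1 at -0.79 (limma adjusted p = 0.0525) and Tekt4 at -0.67 (adjusted p = 0.0534). The control 3'/5' log2 ratio also differed without overlap in WT, at 0.32 to 0.43 in P5 air and -0.06 to 0.20 at E19; its part in these values was not tested. In KO they lay between -0.58 and 0.02, the last being Foxj1. There 0 of 5 had an unadjusted p under 0.05, against 2745 of the 13345 genes. KO P5 air replicate 1 stood above the other lungs of its group: Foxj1 read 873, 332 and 354 in KO P5 air, and Rsph1 769, 279 and 292. Its Ccdc113 value (427) was above every E19 lung, and its Chad value (114) below every KO E19 lung. Without both P5 air arrays numbered 1 Rsph1 fell in KO (-1.03, limma adjusted p = 0.0267), and Tekt1 in WT was at -0.54 (adjusted p = 0.245). Without the arrays of high 3'/5' ratio, 3 ciliated genes fell in WT and Scgb1a1 rose (0.39, limma adjusted p = 0.0410): Foxj1 (-0.82, limma adjusted p = 0.0446), Tekt1 (-0.79, 0.0348) and Tekt4 (-0.67, 0.0183). Those arrays belong to other groups, so these changes kept their size and only the shared estimate of the spread differed. In WT 2 members were called without WT E19 replicate 1 or WT P5 air replicate 2, and 3 without WT E19 replicate 4 or WT P5 air replicate 3. The wider motile cilium list was lower too, with 48 of 53 genes lower in KO (median -0.40, 0 called, and 11 fell without both P5 air arrays numbered 1) and 43 of 53 in WT (median -0.40, 7 fell and 1 rose, and 3 fell and 1 rose without those arrays). In WT the called genes with the largest changes were Ccdc151 (-1.84), an outer dynein arm docking factor, Lrrc23 (-1.70), a radial spoke protein, and Zmynd10 (-1.14), a dynein arm assembly factor, whereas Tppp3, a tubulin-binding protein, rose by 1.20. The regulators Ccno (-1.71), Deup1 (-1.61) and Myb (-1.01) fell with them in WT. Of the Notch genes 5 of 17 rose in WT, with the modifier Lfng at 0.97, Notch4 at 0.92, Dll1 at 0.91 and Notch1 at 0.87, and in KO 1, Notch1, at 0.82.

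From P5 to P56 in air both kinds of gene rose. In KO 9 of 10 members rose, all 5 secretory genes and 4 of 5 ciliated genes, where 29.6% of all genes were called and 15.2% called higher. In WT 6 of 10 rose, 2 secretory and 4 ciliated, where 22.9% of all genes were called and 12.1% called higher. The median change of the ciliated genes was 1.01 in either genotype, and that of the secretory genes 1.10 in KO and 0.99 in WT, against 0.00 in KO and -0.00 in WT for all genes.

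Among the ciliated genes Tekt4 read 431, 489.9 and 505 in KO P56 air, against 319, 173 and 185 in KO P5 air, and 357, 294 and 376 in WT P56 air, against 106, 153 and 194 in WT P5 air. All P56 values were above all P5 values of the same genotype. The changes were 1.04 in KO (SE 0.25, limma adjusted p = 0.00240) and 1.08 in WT (SE 0.25, 0.00214). Rsph1 rose by 1.34 in KO and 1.09 in WT, Tekt1 by 1.01 in both, and Ccdc113 by 0.92 in KO and 0.77 in WT (limma adjusted p = 0.0481). Foxj1 changed by 0.90 in KO (95% interval -0.18 to 1.98) and 0.81 in WT (-0.27 to 1.90) and was not called. In a fit without the arrays of high 3'/5' ratio, which belong to other groups, it was called in KO (limma adjusted p = 0.0256) and in WT (adjusted p = 0.0499).

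Among the secretory genes Chil1 read 9955, 9875 and 10806 in KO P56 air, against 5402, 4194 and 4677 in KO P5 air, and 8186, 7939 and 8007 in WT P56 air, against 2979, 4801 and 4565 in WT P5 air. The changes were 1.10 in KO (limma adjusted p = 0.000445) and 0.99 in WT (adjusted p = 0.00164). Chad rose by 1.85 in KO (adjusted p = 0.0173) and by 2.05 in WT (adjusted p = 0.0110), where the bound is at least 1.10. The size in KO is uncertain for the same 2 dim P5 air values. Scgb3a1 read 14118, 19929.6 and 13909.5 in KO P56 air, against 2567, 1307 and 919 in KO P5 air, and the groups did not overlap. Its change in KO was 3.41 (SE 1.10, limma adjusted p = 0.0202). In WT it read 4726, 535 and 16849 in P56 air, against 478, 1105 and 1477 in P5 air, with 1 adult lung inside the neonatal range and a change of 1.91 (limma adjusted p = 0.234). Scgb1a1 and Scgb3a2 rose in KO by 0.47 and 0.58 (limma adjusted p = 0.0221 and 0.00149), and changed in WT by -0.10 (95% interval -0.41 to 0.22) and -0.00 (-0.27 to 0.27). Neither rise was called with quantile normalization. The changes in KO were then -0.08 for Scgb1a1 and 0.12 for Scgb3a2 (limma adjusted p = 0.567 and 0.219). That scaling gives every array the same set of values. Genes among the brightest then have limited room to rise. Here the median ranks were 4 and 36, with ranges over arrays of 1 to 312 and 14 to 116. The part of this limit in the lost calls was not tested. With median centring neither rise was called by limma either. A difference of the age change between genotypes was not tested for this step.

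Single arrays decide how many members were called in this step. In KO 5 members were called without KO P5 air replicate 2, 5 without replicate 3 and 4 without KO P56 air replicate 2. In WT 2 were called without WT P5 air replicate 1 and 2 without WT P56 air replicate 3. Tekt4 and Chil1 rose in both genotypes in each of these fits. The liver level again moves with age in WT, at -1.03 to -0.25 in P56 air and 1.70 to 3.69 in P5 air. With it as a covariate 0 of 10 members were called in WT by limma, where Tekt4 had 0.79 (adjusted p = 0.0685), and 9 in KO.

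**Figure D4:**
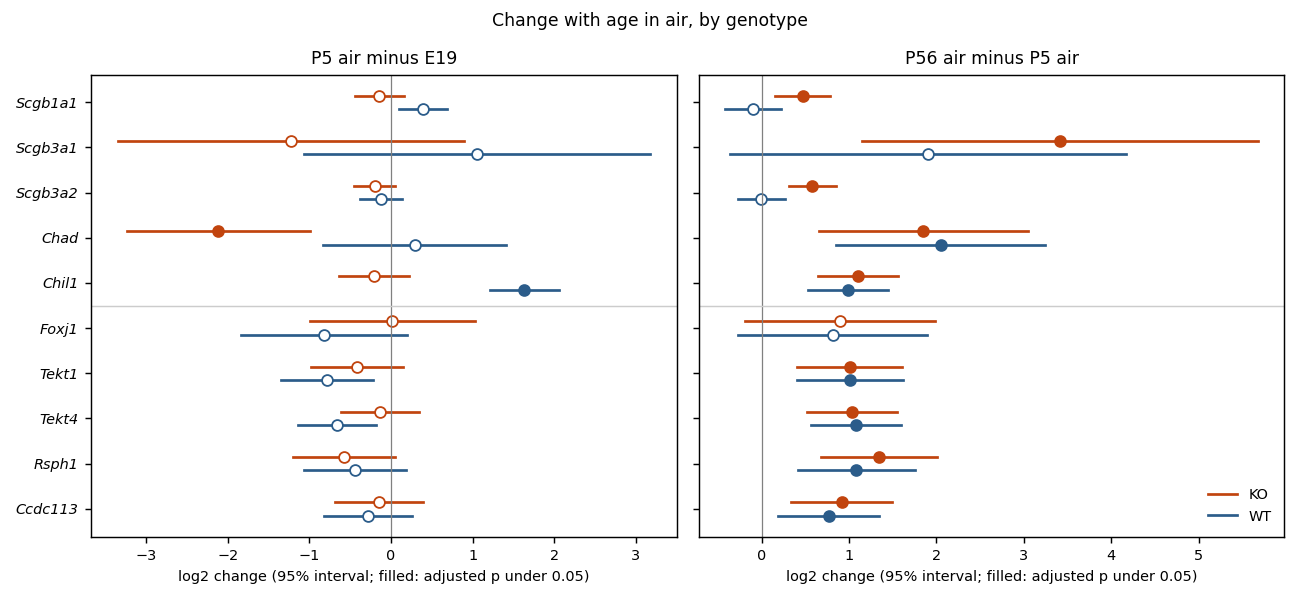
Change of each member with age in air (log2 axis, 95% intervals), KO in orange and WT in blue, P5 minus E19 on the left and P56 minus P5 on the right; filled points passed the adjusted p. From P5 to P56 the ciliated genes lie between 0.77 and 1.34 in both genotypes, whereas from E19 to P5 Chil1 is at 1.63 in WT and -0.21 in KO.

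The wider lists rose with the members. Of 53 motile cilium genes 31 rose in KO and 30 in WT, and 0 fell in either, with medians of 0.92 and 0.88. In KO the largest were Fam183b (2.08), Cdhr4 (1.96), Pifo (1.64) and the dynein regulatory complex gene Iqcg (1.59), and in WT Stk33 (1.60), the central apparatus gene Spag16 (1.57), Ccdc151 (1.56) and the adenylate kinase Ak7 (1.43). With median centring 16 rose in KO. Without both P5 air arrays numbered 1 the count was 41 in KO and 18 in WT, and with the liver covariate 4 in WT. Of 29 club and secretory genes 20 rose and 1 fell in KO (median 1.40), and 16 rose and 2 fell in WT (median 1.08). Among those that rose, the largest were Bpifa1, a secreted antimicrobial protein of the airway surface, at 6.03 in KO and 4.26 in WT, the sulfotransferase Sult1d1 at 5.39 and 3.24, and Pigr, the receptor that carries IgA across epithelia, at 4.80 and 3.24. Krt15 fell by 2.20 in KO and by 3.52 in WT. Plk4, the kinase that starts centriole duplication, fell by 1.38 in KO and 1.90 in WT.

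After birth no member passed the test between genotypes. In P5 air and in P5 hyperoxia 0 of 10 members were called by limma, where 0.015% and 0.187% of all genes were called. At an unadjusted p under 0.05 were 0 members in either, against 741 and 402 of the 13345 genes. The changes of the ciliated genes were -0.04 to 0.49 in P5 air and -0.33 to -0.19 in P5 hyperoxia. In P56 air 0 of 10 members were called by limma, where 0.0599% of all genes were called. At an unadjusted p under 0.05 were 2 members, Scgb1a1 and Scgb3a2, and 1582 of the 13345 genes. Scgb1a1 read 29721, 36255 and 34506 in KO P56 air, against 22959.7, 20791 and 25570.5 in WT P56 air, a change of 0.54 (SE 0.15, limma adjusted p = 0.131). Scgb3a2 read 27570.4, 29292 and 27522 in KO P56 air, against 19039, 17676 and 21172 in WT P56 air, a change of 0.55 (SE 0.13, limma adjusted p = 0.0800). In both genes every KO lung was above every WT lung, as were Chil1 and Tekt4, which makes 4 of 10 members against 34.5% of all genes. The control 3'/5' log2 ratio did not overlap between these groups either, at 0.68 to 1.05 in KO P56 air and 0.21 to 0.36 in WT P56 air; its part in these values and in those of the wider lists was not tested. In a fit of the P56 air groups alone Scgb1a1, Scgb3a2 and Chil1 were called (limma adjusted p = 0.0236, 0.0163 and 0.0338). The same KO P56 air arrays gave the rises of Scgb1a1 and Scgb3a2 from P5, which quantile normalization and median centring left uncalled. Of the wider lists 26 of 29 club and 45 of 53 cilium genes were higher in KO P56 air (medians 0.42 and 0.32 against 0.02 for all genes), with 0 called by limma. In P56 hyperoxia 0 of 10 members were called by limma, where 0.03% of all genes were called. At an unadjusted p under 0.05 were 4 members and 1161 of the 13345 genes.

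Exposure to hyperoxia in the first 5 days of life was compared with air at P5, at its end, and at P56. No member was called in any of the 4 comparisons. At P5 the shares of all genes called were 0.337% in KO and 0.00749% in WT. Limma gave 781 and 413 genes and 0 and 1 members at an unadjusted p under 0.05. At P56 the shares called were 0% in KO and 0% in WT. Limma then gave 363 and 676 genes and 0 and 2 members at an unadjusted p under 0.05. Tekt4 was the 1 member with an unadjusted p under 0.05 at P5, with 210.5, 277 and 248 in WT P5 hyperoxia, against 106, 153 and 194 in WT P5 air, groups that did not overlap (0.64, SE 0.25, limma adjusted p = 0.9998). Chad read 18.05, 10.7 and 8.97 in KO P5 hyperoxia, against 114, 62.2 and 23.5 in KO P5 air, all but 1 of them under the median of all values (-1.14, limma adjusted p = 0.882). Of the wider club list Krt15, a keratin, rose in KO P5 hyperoxia (3.46, limma adjusted p = 0.0423), on arrays with high squamous gene levels and high striated muscle gene levels (1.42 to 1.86 in KO P5 hyperoxia, against -0.63 to 0.66 in KO P5 air); their part in it was not tested. At P56 Chil1 read 10176, 12795 and 11522 in WT P56 hyperoxia, against 8186, 7939 and 8007 in WT P56 air. The groups did not overlap, and the change was 0.51 (SE 0.22, limma adjusted p = 0.805). Chad read 347, 2769 and 654 in WT P56 hyperoxia, against 233, 153 and 403 in WT P56 air (1.72, limma adjusted p = 0.805). The value of 2769 belongs to replicate 2, the array with the high 3'/5' ratio, on which Foxj1 had its lowest adult value, 231.

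The genotype-by-oxygen term asked whether oxygen acts alike in both genotypes. No member was called in it at P5 (0.135% of all genes called by limma) or at P56 (0% of all genes called by limma). At an unadjusted p under 0.05 were 310 genes and 1 member at P5, Tekt4 at -0.83. At P56 these counts were 330 genes and 0 members. The wider cilium list leaned in opposite directions at P5, with 6 of 53 genes higher in KO hyperoxia than in KO air (median -0.23) and 52 of 53 higher in WT hyperoxia than in WT air (median 0.29), and 0 called in either by limma. In the term itself 51 of 53 were negative, with a median of -0.57 against 0.00 for all genes. This lean was smaller in a fit with fewer air arrays. Without both P5 air arrays numbered 1 the medians were 0.04 in KO, 0.14 in WT and -0.09 in the term. The cause of that difference was not tested.

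Across all 32 arrays the ciliated genes kept together more closely than the secretory genes. Pearson correlations of log2 values, given as a description since the arrays share groups and scaling, were 0.62 to 0.93 over the 10 ciliated pairs (median 0.84), 0.33 to 0.81 over the 10 secretory pairs (median 0.64) and 0.15 to 0.76 over the 25 mixed pairs (median 0.55). After the group means were taken out the medians were 0.75, 0.34 and 0.19, so that ciliated genes also varied together among arrays of 1 group. These arrays include KO E19 replicate 1 and KO P5 air replicate 1, whose ciliated genes stood apart from their groups. The medians without them were not taken. The level of the secretory minus that of the ciliated genes was 0.06 to 0.25 in KO E19 replicates 2 to 4 and 1.67 in replicate 1, the array with the high 3'/5' ratio, against -1.67 to -0.55 in WT E19, and in the postnatal groups it lay between -0.67 and 0.75, except for 1.65 on WT P56 hyperoxia replicate 2, the other such array. The tested genes most like Foxj1 by Pearson correlation over the 32 arrays were Dnaic2 (r = 0.93), Aldh2 (0.90), Cnppd1 (0.89), Mycbpap (0.88) and Hspb8 (0.88). Those most like Scgb1a1 were Sptbn1 (0.92), Ctnna1 (0.91), App (0.90), Ager (0.85) and Calcrl (0.82), and 0 of these 5 is in either airway list.

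**Figure D5:**
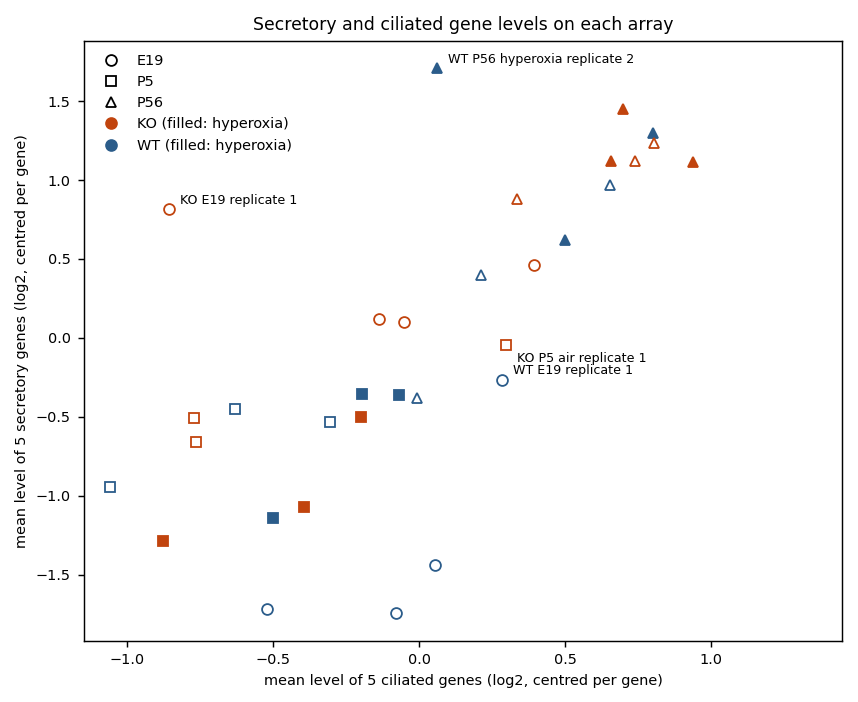
Mean centred log2 level of the 5 secretory genes against that of the 5 ciliated genes on each of the 32 arrays, KO in orange and WT in blue, filled for hyperoxia, with the shape giving the age. Most P5 lungs lie at the lower left and most P56 lungs at the upper right, with KO P5 air replicate 1 and WT P56 air replicate 2 between them, WT E19 replicates 2 to 4 lie low on the secretory axis (-1.74 to -1.44), and KO E19 replicate 1 is low on the ciliated axis (-0.86).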

How the data were processed

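RNA from part of each lung was read on Affymetrix mouse expression arrays, per the labels. What the authors deposited is the intensity of 45101 probe sets per array, not in logs; the submitters' processing notes name MAS5, with no version. Once the lowest and highest 2% of an array were set aside, its mean was 499.8 to 499.9 on all 32 arrays, as computed here. Array sums ran from 31172678 to 35272173 and medians from 68.4 to 124.6, a 1.82-fold range, and no further scaling was done. The labels give neither sex nor litter; the number of arrays limits the precision.

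Before taking log2, 26.3 (the lower quartile of the values) was added. A probe set was kept if it exceeded the overall median, 100.4, in 3 arrays or more. Of 45101 probe sets 64 were controls, 9160 carried no symbol and 932 several, and none of these entered the tests. For every gene the kept probe set with the highest mean stood in. In R 4.3.3 with limma 3.58.1, 1 fit with 10 group means and a trended prior (22 residual degrees of freedom) gave 16 contrasts, two-sided, adjusted over 13345 genes. The fit was tested on data with known answers. Replicate numbers were checked for pairing by the correlation of deviations from the group means. Of 40 same-numbered pairs 10 exceeded 0.1 (range -0.41 to 0.27), and KO against WT in P5 hyperoxia was the only 1 of 13 comparisons with every pair above it, where the replicate block called 0 members as well. The labels call the samples biological replicates. Alternatives covered the offset, filter, scaling, groups fitted, array weights, replicate block, tissue levels as covariates and arrays left out.

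The members, gene lists, tests and alternatives were chosen with earlier results of these data known. Named beside the members were up to 4 called genes of largest change per list and the 5 genes closest to Scgb1a1 and to Foxj1. Lists are described by counts and medians, and a list level is the mean of log2 values centred per gene. Other lists at E19, KO against WT: 2 of 11 basal and 0 of 9 goblet genes rose (3 goblet genes fell), 0 of 4 neuroendocrine genes and 0 of 3 thymus and thyroid genes were called, 7 of 14 type 1, 2 of 13 macrophage and 4 of 22 striated muscle genes rose, all 15 liver genes fell and 6 of 13 squamous genes fell. Promoter windows come from RefSeq (GRCm38.p6), without those on chromosome 18.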

Additional observations from a re-analysis of the deposited data

Results flagged for a closer look

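Scgb3a1 read 4878.26 on WT E19 replicate 1, far above the other WT E19 lungs at 203, 98.3 and 284 and within the KO E19 range of 2163 to 4987. The same array had a liver gene level of -0.54 where the others had 4.78 to 5.99, and a squamous gene level of 2.33; their part in the value was not tested.

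Foxj1 had a log2 value of 7.08 (signal 109) on KO E19 replicate 1, far below the other KO E19 lungs. The log2 3'/5' ratio of the control probe sets on that array was 4.37, against -0.01 to 0.57 in the other KO E19 lungs; its part in the value was not tested. The check covered 20 sets of 4 arrays, each on the signal and on the log2 scale. Chance flags about 1 in 20 sets on each scale, so the share flagged on either scale is at least that.

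Chil1 differed between the genotypes in its step from E19 to P5 air, at -0.21 in KO and 1.63 in WT, a difference of -1.84 by the limma interaction term (adjusted p = 0.00256).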

How the results depend on the processing

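Of 3440 member values under the alternatives 3127 kept direction and side of the threshold, 49 gained a call, 68 lost one, and 196 changed sign, 195 of them uncalled on both sides. The 1 called value that reversed was Scgb1a1 from P5 to P56 in KO, -0.0847 with quantile normalization (adjusted p = 0.567). The cause was not tested, except where fewer arrays or a narrower pool of groups are the alternative itself. Counts of members called are given here. KO against WT at E19 (4): 1 in the compared groups alone, 2 with array weights, 1 with the liver covariate. KO against WT: in P5 hyperoxia (0) 1 with weights; in P56 air (0) 3 alone, 3 with weights and 2 without the arrays of high 3'/5' ratio, an alternative chosen after seeing the data; in P56 hyperoxia (0) 4 with weights. Hyperoxia at P5: 2 in KO and 3 in WT with weights (0 each). Genotype by oxygen: 1 at P5 and 1 at P56 with weights (0 each). P5 against E19 in KO (1): 0 with offset 1, 0 alone, 2 with weights, 2 without both P5 air arrays numbered 1. P5 against E19 in WT (1): 4 with quantile normalization, 4 with weights, 2 with the replicate block, 3 with the liver covariate, 5 without the high 3'/5' arrays. P56 against P5 in WT (6): 0 with the liver covariate, 3 without both P5 air arrays numbered 1. Genotype by birth (1): 0 alone, 2 with weights. Leaving out 1 array at a time gave 2 to 4 at E19, 0 to 2 for P5 against E19 in KO and 1 to 3 in WT, 4 to 9 for P56 against P5 in KO and 2 to 6 in WT, 1 to 1 for genotype by birth and 0 to 0 in the genotype and oxygen comparisons after birth. The replicate block changed the count by over 1.5 times in no other comparison; at E19 it gave 3.

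Over all genes the E19 count of 2023 ran from 40 (compared groups alone) to 3026 (median centring), P5 against E19 from 0 to 2921 in KO and 1030 to 4743 in WT, P56 against P5 from 2919 to 7570 in KO and 1976 to 7619 in WT, and genotype by birth from 1 to 414. Array weights, estimated from 0.047 to 10.4, gave up to 4717 calls where the main counts were 0 to 45. Median centring shifted the median of all genes by 0.28 at E19 and quantile normalization by 0.07. No second probe set was on the array for any member, so that alternative gave no value.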
